A study of Mus musculus with 4 samples.

Results

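The 7 genes described here are 4930556C24Rik, Gm48544, 1700121L03Rik, AC140207.2, AC140207.3, Gm30893 and Gm15517, which were proposed as noncoding RNAs of particular germ-cell stages whose level differs with diet. They were taken by symbol from the 55450 genes of the deposited single-cell matrices, and all 7 were among the 25470 genes with enough counts to be tested in the whole testis. They had been picked with their diet ratios and stage patterns in these libraries known. Their own levels and ratios are therefore given as a description, with standard errors but without p-values. Where a member is said to be called, this gives its side of the threshold in the fit over all genes and is no independent evidence for it. P-values are printed only for other genes.

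The data were droplet single-cell transcriptomes of enzymatically dissociated mouse testis, made with the 10x Chromium 3′ kit (version 3), which reads the 3′ end of a transcript and counts unique molecular identifiers (UMIs). High-fat feeding (HFD) was represented by 2 libraries and normal feeding (ND) by 2 more. No strain, age, length of feeding, batch or animal number is given in the labels, and nothing says that the libraries came from separate mice, so the spread between libraries may be technical. The 4 libraries held 13561 to 15290 barcodes and 143748262 to 154221188 UMIs, and 13122 to 14468 cells were kept in each.

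Spermatogonia divide and enter meiosis as spermatocytes, which pass through a long pachytene stage, and the haploid products develop through round and elongating spermatids. The testis transcribes an unusually large set of long noncoding RNAs, many of them in pachytene spermatocytes and round spermatids and most of them without a known function. In pachytene cells the factor A-MYB, the product of Mybl1, is known to drive many meiotic and noncoding genes. Because each stage has its own transcripts, a change in the mix of stages alters the whole-testis level of a stage-restricted RNA even where no cell alters its expression.

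The labelled gene type held for 6 of the 7 genes. GENCODE M21 (GRCm38) gives 4930556C24Rik (chr16:85819211-85826769, plus strand), Gm48544 (chr13:13034858-13038936, plus strand), 1700121L03Rik (chr1:125190282-125197455, minus strand), AC140207.2 (chr18:67066578-67084380, plus strand) and AC140207.3 (chr18:67029440-67031518, minus strand) as long intergenic noncoding RNAs. Gm30893 (chr13:14521486-14525016, plus strand) is an antisense RNA that overlaps the start of Hecw1, a ubiquitin ligase gene on the other strand. Gm15517 (chr7:44261447-44261891, plus strand) is called protein-coding by both GENCODE and RefSeq, which goes against its listing as a noncoding RNA.

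For 4 of the genes the reads may not belong to the gene alone. All 445 exonic bases of Gm15517 lie within Gm28496, a processed transcript on the same strand, so the split of reads between those genes is uncertain. Gm30893 shares 57 exonic bases with Hecw1, and the counting is not stated to use strand. AC140207.2 is a single exon of 17803 bases, and transcripts of 807 other genes match it over at least 50 bases at 95% identity or more. Its longest such match, at its bases 8320 to 9907, covers 1591 bases of Gm37924 at 96.5% identity. Gm48544 has 3 such genes, and its longest match, of 210 bases at 96.2% identity, is also with Gm37924. That match lies at bases 195 to 403 of its 2394 bases, counted from the 5′ end. For 4930556C24Rik, 1700121L03Rik and AC140207.3 the count of such genes is 0.

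The promoter of 4930556C24Rik is shown because this gene had the largest positive ratio of HFD over ND and was highest in pachytene-like cells. It is the RefSeq window (GRCm38.p6) from 250 bases before to 50 bases after the start, chr16:85818961-85819260 on the plus strand, and capitals mark each match to the MYB-type core TAACNG on either strand.
4930556C24Rik promoter: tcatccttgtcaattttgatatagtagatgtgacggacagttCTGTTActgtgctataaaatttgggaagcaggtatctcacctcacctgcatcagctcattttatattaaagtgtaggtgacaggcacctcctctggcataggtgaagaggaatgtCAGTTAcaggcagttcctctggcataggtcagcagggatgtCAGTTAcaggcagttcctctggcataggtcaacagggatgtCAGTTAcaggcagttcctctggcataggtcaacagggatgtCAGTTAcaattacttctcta

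The window holds 5 matches, at positions 43, 158, 199, 240 and 281 counted from its 5′ end. The last 4 are 41 bases apart and belong to a tandem repeat, in which 96 of 100 bases are identical to those 41 bases further on. At least 1 match occurs in 23.3% of the 32851 promoters of the same length, and at least 5 occur in 8 promoters. The same window has 2 matches to TATAAA, of which 13.6% of promoters hold at least 1, and 1 to TGACG, which 20.8% hold. It has 0 to TGACGTCA and 0 to CACGTG, which 1.79% and 7.15% of promoters hold. A match to TGACGTCA also contains TGACG. The promoters of Gm30893 and Gm15517 have 0 matches to any of these 5 motifs, searched on both strands. The motifs were chosen after the sequences had been seen, and a match is not evidence of binding. The other 4 genes have no entry in the promoter table.

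The 3′ end of each transcript matters here because the kit captures RNA by its poly(A) tail. The last 100 bases of 4 of the noncoding transcripts follow, from GENCODE M21 (GRCm38), with the polyadenylation signal AATAAA in capitals where it occurs. They cover chr16:85826670-85826769 (plus strand), chr1:125190282-125190381 (minus strand), chr13:14524432-14524531 (plus strand) and chr13:13038837-13038936 (plus strand), in that order.
4930556C24Rik: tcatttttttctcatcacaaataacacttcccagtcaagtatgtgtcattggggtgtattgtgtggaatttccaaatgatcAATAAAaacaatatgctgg
1700121L03Rik: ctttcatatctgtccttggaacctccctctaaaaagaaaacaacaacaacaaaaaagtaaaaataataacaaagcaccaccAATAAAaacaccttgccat
Gm30893 (transcript 202): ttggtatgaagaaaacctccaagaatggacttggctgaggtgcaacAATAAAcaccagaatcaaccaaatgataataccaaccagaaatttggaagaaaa
Gm48544: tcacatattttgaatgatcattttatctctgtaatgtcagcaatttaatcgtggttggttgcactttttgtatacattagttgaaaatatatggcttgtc

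In 4930556C24Rik and 1700121L03Rik the signal starts 19 bases from the annotated end. In Gm30893 transcript 202 it starts 54 bases from the end, and transcript 201 of that gene and Gm48544 have none in this window.

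Cells of all 4 libraries were clustered together into 24 clusters, which were called by the likeness of their markers. Early spermatocyte-like (cluster 17), pachytene-like (3, 5 and 15), early-round-spermatid-like (10, 11, 12 and 14) and elongating-spermatid-like cells (0, 2, 4 and 20) were found, with 6 somatic clusters. Of 18 germ-cell clusters, 6 stayed unnamed. Cluster 7 scored highest for pachytene markers (1.06) and next for early spermatocyte markers (0.85), but its leading genes held the early spermatocyte marker Tex101. Cluster 1 scored highest for elongating and next for late round spermatid markers (1.04). Clusters 6, 8, 9 and 13 were of low depth. Cluster 15 also scored almost as high for late spermatocyte markers (1.08) as for pachytene markers (1.11). Cluster 5 was led by the mitochondrial ribosomal RNAs mt-Rnr1 and mt-Rnr2. It had 0 markers of its class among its 10 leading genes, as did germ-cell clusters 10, 11, 12, 14 and 15. Cluster 17 scored 3.16 for early spermatocyte and 2.22 for spermatogonial markers, with the spermatogonial marker Stra8 among its leading genes. Cluster 20 had the lowest score of the named germ-cell clusters (0.58) and a median of 1978 UMIs per cell, and AC140207.2 and AC140207.3 were themselves among the leading genes of cluster 3. The 7 members were left out of the genes used for clustering, but genes with like profiles may have helped to form the clusters. The levels below therefore describe where each RNA was found and are no test.

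Of the RNAs of meiotic cells, 4930556C24Rik was highest in pachytene-like cluster 5, at 58.9 ± 7.69 CPM (mean ± SD, n = 4 libraries). CPM here is the gene's UMIs scaled to the same total in every cluster and library. Cluster 15 followed at 47.9 ± 7.26 CPM, and the libraries of the 2 clusters overlapped. Pachytene-like cells gave 63.0% of its UMIs and 29.9% of all UMIs. Over the 6 somatic clusters, which serve as a guide to free RNA, its level ran from 5.97 CPM in cluster 19, like the steroid-producing Leydig cells, to 25.3 CPM in cluster 22. Its level in early-round-like cells, 8.31 CPM, lay within that range.

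Gm48544, AC140207.2 and AC140207.3 peaked together in cluster 7. Gm48544 stood at 134.8 ± 26.9 CPM there and at 92.4 ± 12.3 CPM in pachytene-like cluster 3. AC140207.2 stood at 527 ± 13.4 CPM and then 373 ± 14.7 CPM, and AC140207.3 at 104.6 ± 2.44 CPM and then 80.2 ± 4.75 CPM, in the same 2 clusters. For each of the 3 genes the libraries of cluster 7 did not overlap those of cluster 3. All were lower in cluster 15, at 51.5, 105.9 and 22.1 CPM. Over the 6 somatic clusters Gm48544 ran from 10.1 CPM in cluster 19 to 30.1 CPM in cluster 18. AC140207.2 ran from 31.2 CPM in cluster 19 to 120.4 CPM in cluster 18, and AC140207.3 from 8.60 CPM in cluster 23 to 25.9 CPM in cluster 22. The cluster 15 levels of the AC140207 genes lay within these ranges.

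AC140207.2 and AC140207.3 lie 35.1 kb apart on opposite strands, and their profiles over the 24 clusters had a Pearson r of 0.97 on the log2(CPM + 1) scale. The r of Gm48544 was 0.94 with AC140207.2 and 0.93 with AC140207.3, and it lies on another chromosome. Gm48544 and AC140207.2 each share sequence with Gm37924, and the part of shared reads in these values was not tested. These points share libraries, depth and cell mix, and the values are a description only.

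1700121L03Rik was a round-spermatid RNA. It stood at 134.1 ± 15.4 CPM in cluster 12 and 118.2 ± 20.3 CPM in cluster 11, with overlapping libraries, and at 1.18 CPM in pachytene-like cluster 15. Early-round-like cells gave 91.4% of its UMIs and 30.7% of all UMIs, the narrowest distribution over named classes of the 7 genes. Its somatic levels ran from 2.75 CPM in Leydig-like cluster 19 to 22.8 CPM in cluster 22.

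Gm30893 was found later. It stood at 38.6 ± 6.66 CPM in cluster 1 and 38.2 ± 3.61 CPM in early-round-like cluster 14, with overlapping libraries, followed by 34.8 CPM in elongating-like cluster 0. It was at 0.92 CPM in elongating-like cluster 20, where only 2 UMIs were counted. Sertoli-like cluster 16 held 13.7 CPM, above the 1.08 CPM of Leydig-like cluster 19. After Sertoli markers (3.22), cluster 16 scored next for elongating spermatid markers (1.02). The part of spermatid RNA in its level was not tested.

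Gm15517 was highest in elongating-like cluster 20, at 2167 ± 254 CPM. Cluster 2 followed at 721 ± 56.9 CPM, without overlap. The lowest level was 24.2 CPM in pachytene-like cluster 15, below the 52.5 CPM of Leydig-like cluster 19. Sertoli-like cells also held 310 CPM, and the part of spermatid RNA in that level was not tested either.

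**Figure D1:**
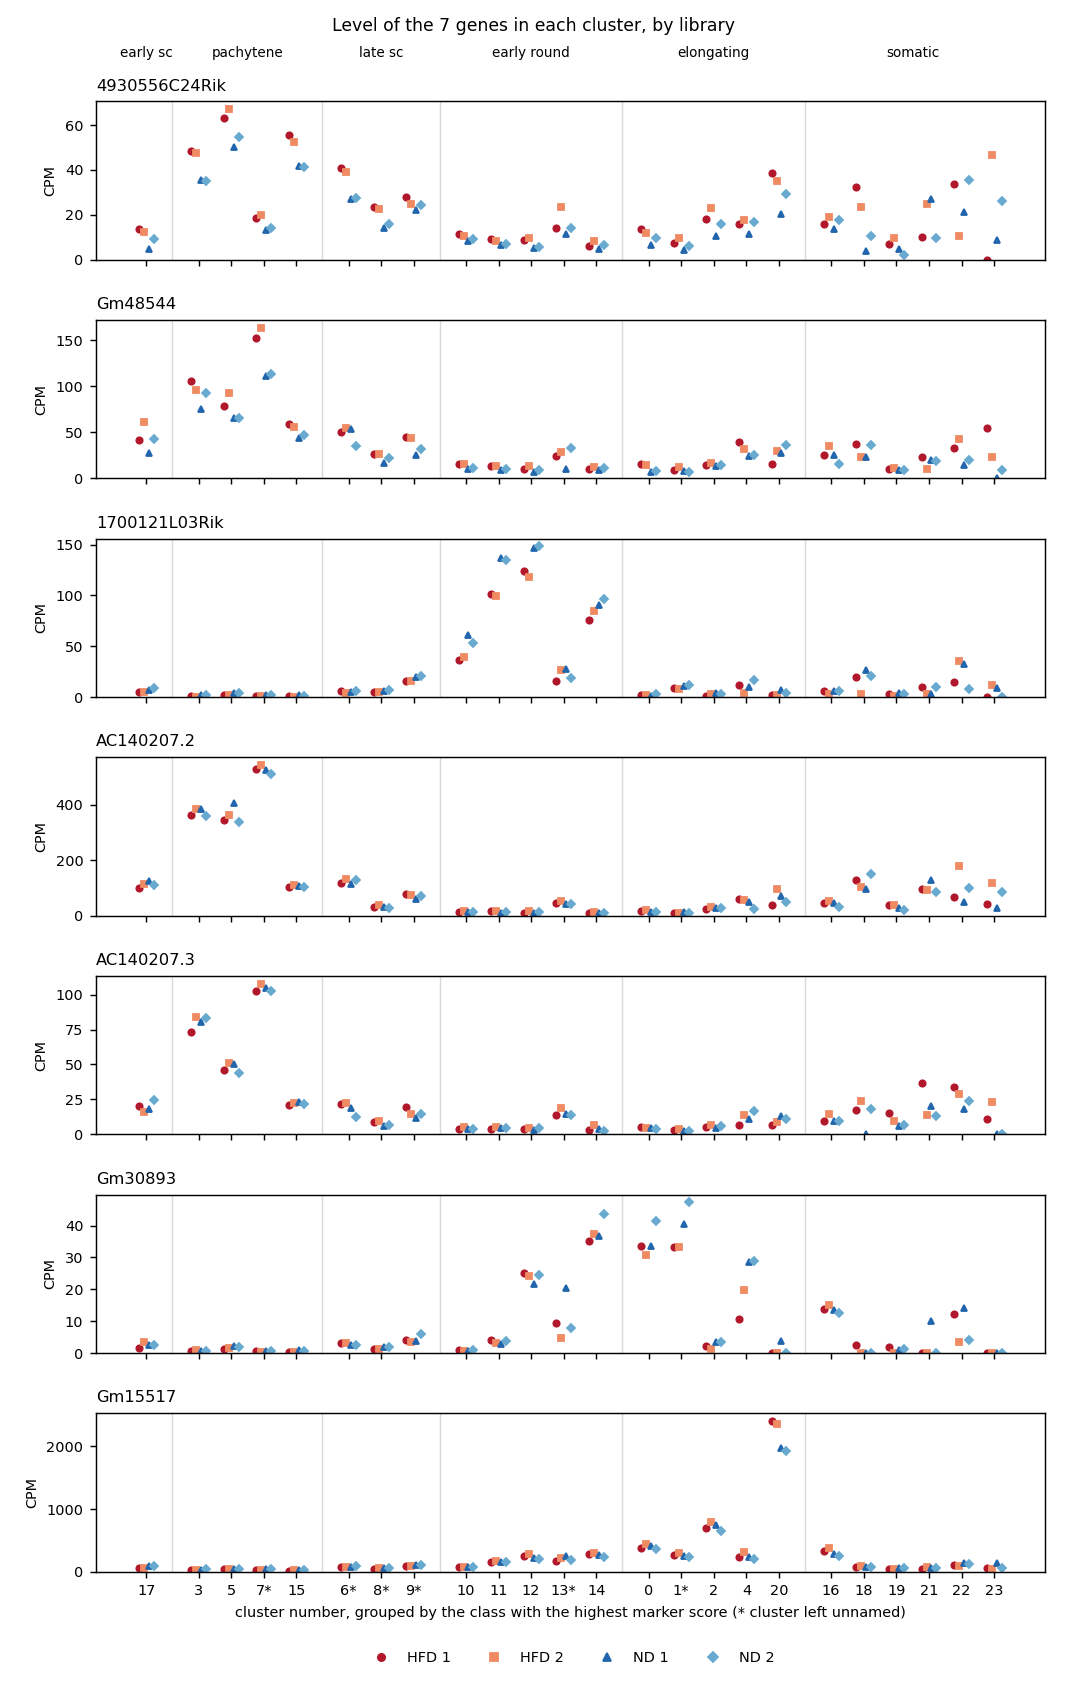
Level of each of the 7 genes (CPM, linear axis from 0) in each of the 24 clusters, grouped by the class with the highest marker score; each point is 1 library, and an asterisk marks a germ-cell cluster left unnamed. 4930556C24Rik peaks in pachytene-like cluster 5, Gm48544 and the 2 AC140207 genes in cluster 7, 1700121L03Rik in early-round-like cluster 12, Gm30893 in clusters 1 and 14, and Gm15517 in elongating-like cluster 20.

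The genes with the most similar profiles were ranked by Pearson r of log2(CPM + 1) over the 24 clusters, whose points share libraries and depth. For 1700121L03Rik they were Stambpl1 (r = 0.98), 4930553M12Rik (0.98) and Triml1 (0.97). Stambpl1, a deubiquitinase gene, was lower in HFD, with a log2 ratio of HFD over ND of -0.45 (SE 0.044; edgeR adjusted p = 1.19e-05), as was Triml1 at -0.39 (SE 0.044; edgeR adjusted p = 2.28e-05). For Gm48544 the nearest was Id4 (r = 0.97), an inhibitor of DNA binding, at 0.09 (SE 0.047; edgeR adjusted p = 0.161), and Gm6653 (0.96) was higher at 0.31 (SE 0.040; edgeR adjusted p = 6.08e-05). For 4930556C24Rik it was Gm43352 (r = 0.94), higher at 0.40 (SE 0.041; edgeR adjusted p = 1.35e-05). AC140207.2 and AC140207.3 shared 1700097M23Rik (r = 0.98 and 0.97), higher at 0.21 (SE 0.048; edgeR adjusted p = 0.00393). For Gm30893 it was 4930448K20Rik (r = 0.98), lower at -0.25 (SE 0.050; edgeR adjusted p = 0.00132). For Gm15517 it was Csnk1g2 (r = 0.99), a casein kinase gene, lower at -0.23 (SE 0.042; edgeR adjusted p = 0.0006).

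In the whole testis, UMIs summed over all kept cells, 4930556C24Rik stood at 27.9 and 27.8 CPM in the HFD libraries and at 16.7 and 17.9 CPM in the ND libraries. The groups were apart, and HFD was 1.61-fold higher (log2 ratio 0.69, SE 0.049). Gm48544 stood at 55.2 and 58.9 CPM in HFD and at 35.4 and 39.9 CPM in ND, 1.51-fold higher in HFD (log2 ratio 0.60, SE 0.054).

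AC140207.2 stood at 157.5 and 176.5 CPM in HFD against 141.3 and 137.7 CPM in ND, a log2 ratio of 0.26 (SE 0.049). AC140207.3 stood at 31.1 and 35.9 CPM against 28.3 and 29.0 CPM, a log2 ratio of 0.22 (SE 0.058). Both were higher in each HFD library, by a smaller factor than the first pair. Without HFD 2 the ratio of AC140207.3 was 0.12 (SE 0.055) and no longer called.

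1700121L03Rik had the most negative ratio. It stood at 23.6 and 22.3 CPM in HFD against 39.1 and 39.4 CPM in ND. ND was 1.71-fold higher (log2 ratio of HFD over ND -0.78, SE 0.046). Gm30893 stood at 8.04 and 7.46 CPM in HFD against 10.1 and 11.3 CPM in ND (log2 ratio -0.46, SE 0.069). Gm15517 stood at 125.3 and 131.8 CPM in HFD against 139.2 and 130.8 CPM in ND, which overlapped (log2 ratio -0.07, SE 0.043).

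By edgeR, 6 of the 7 were called at an adjusted p under 0.05, 4 higher and 2 lower in HFD, where 34.3% of all tested genes were called. Of all tested genes, 15.3% were called higher and 18.9% lower. The members were chosen on this contrast, so nothing is read from their count. In such sums, fewer cells of a type and less RNA per cell cannot be told apart.

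**Figure D2:**
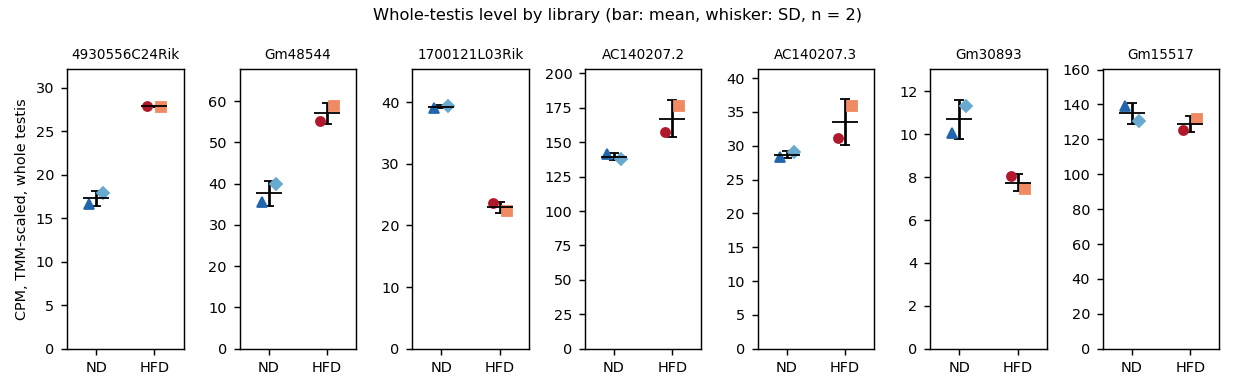
Whole-testis level (TMM-scaled CPM, axis from 0) of each gene in the 2 ND and 2 HFD libraries; points are libraries, the bar is the mean and the whisker the SD. The groups are apart for 6 genes and overlap for Gm15517.

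The mix of stages differed between the diets for some stages and overlapped for others. Pachytene-like cells gave 33.8% and 35.1% of the UMIs in HFD against 24.8% and 25.3% in ND. Early-round-like cells gave 27.2% and 26.6% in HFD against 34.8% and 34.6% in ND. The shares of cluster 1 were 7.27% and 6.94% against 8.75% and 8.24%, and those of cluster 7 (11.9% and 14.1% against 12.0% and 12.8%) overlapped. Elongating-like cells gave 6.57% and 6.01% of the UMIs in HFD against 6.67% and 6.28% in ND, which also overlapped. Among whole-testis marker levels, 9 of 10 pachytene markers were called higher, 9 of 10 early round, 9 of 10 late round and 9 of 10 elongating spermatid markers lower, and all 6 Leydig and all 8 Sertoli markers lower (edgeR, adjusted p under 0.05). The part of the Leydig and Sertoli shift in the members' ratios was not tested. The makeup calculation below gives its share terms for clusters 16 (Sertoli-like), 19 and 23 (both Leydig-like). They were largest for Gm15517, at -0.70, -0.28 and -0.02 CPM of a share part of -15.8 CPM. For AC140207.2 they were -0.10, -0.17 and -0.02 CPM of 22.6 CPM, and for 1700121L03Rik -0.01, -0.01 and -0.0011 CPM of -8.18 CPM.

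Tested genes were also counted by the class or cluster in which they were highest. Of 3114 tested genes highest in pachytene-like cells, 1876 were called higher and 1 lower, with a median log2 ratio of 0.21 against -0.02 over all tested genes. Of 3566 highest in early-round-like cells, 19 were called higher and 1839 lower, with a median of -0.26. Of the 1175 highest in cluster 7, 436 were called higher and 5 lower, with a median of 0.12. Of the 1538 highest in elongating-like cells, 55 were called higher and 497 lower, with a median of -0.13. The UMI shares of cluster 7 and of elongating-like cells overlapped between the diets, as given above. The part of the mix in any of these counts was not tested.

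To set makeup apart from level, each library's level was written as the sum over clusters of the cluster's UMI share times the gene's CPM in it, and one factor at a time was held at its mean over the 4 libraries. With makeup held fixed, the log2 ratio of HFD over ND was 0.42 for 4930556C24Rik and 0.40 for Gm48544, and with the levels held fixed it was 0.25 and 0.19. By library, 4930556C24Rik with makeup held fixed was 25.6 and 25.6 CPM in HFD and 18.6 and 19.6 CPM in ND, still apart. Shares accounted for 37.5% of its CPM difference and 32.1% of that of Gm48544. With shares of cells as weights in place of shares of UMIs, the ratios with makeup held fixed were 0.42 and 0.42, and those from makeup alone 0.18 and 0.17.

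For 1700121L03Rik the ratio was -0.39 with makeup held fixed and -0.39 from makeup alone, and shares accounted for 49.6% of the CPM difference. With shares of cells as weights these ratios were -0.39 and -0.31. For Gm30893 the ratio was -0.21 with makeup held fixed and -0.26 from makeup alone; the former was -0.11 without ND 2 and -0.31 without ND 1. With shares of cells as weights their order turned, at -0.26 and -0.17.

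With makeup held fixed the ratios of AC140207.2 and AC140207.3 were 0.04 and 0.02, while makeup alone gave 0.21 and 0.20. The former lay within the spread of a difference between single libraries of the 2 diets, 0.075 and 0.089. That spread is the square root of the summed log2 variances of the 2 diets. The ratios with makeup held fixed were 0.08 and 0.08 without HFD 1, and 0.0038 and -0.04 without HFD 2. With shares of cells as weights, AC140207.3 had 0.10 with makeup held fixed and 0.19 from makeup alone, and AC140207.2 had 0.04 and 0.21. Whether these ratios differ from those of the other members was not tested. With UMI weights and all 4 libraries, shares accounted for 84.3% and 91.6% of their CPM differences, and pachytene-like cluster 3 alone for 10.8 and 2.31 CPM of the share part.

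Gm15517, with no clear ratio in the whole testis, had a negative ratio from makeup alone and a small positive one, not resolved, with makeup held fixed. Makeup alone gave a log2 ratio of -0.17, and with makeup held fixed it was 0.10 (0.03 without HFD 2 and 0.17 without HFD 1). The spread of a difference between single libraries, taken as above, was 0.11, and the ratio with makeup held fixed lay within it. By library the level with makeup held fixed was 130.5 and 144.0 CPM in HFD against 130.2 and 125.9 CPM in ND.

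The members were kept out of the clustering in every run. When the other genes called for diet were kept out too, the ratios with makeup held fixed were 0.43 for 4930556C24Rik, 0.42 for Gm48544 and -0.41 for 1700121L03Rik. They were 0.05 for AC140207.2, 0.03 for AC140207.3, -0.22 for Gm30893 and 0.11 for Gm15517. Over the 10616 tested genes of at least 5 CPM, the median ratio was -0.0029 with makeup held fixed. A ratio beyond 1.3-fold with makeup held fixed, a cut chosen after the values were seen, was found in 0.433% of them, and 3 of the 7 members passed it (4930556C24Rik, Gm48544 and 1700121L03Rik). Without ND 1 the ratio of Gm48544, 0.34, was under that cut. The members were picked for diet ratios, and nothing is read from the count that passed it.

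**Figure D3:**
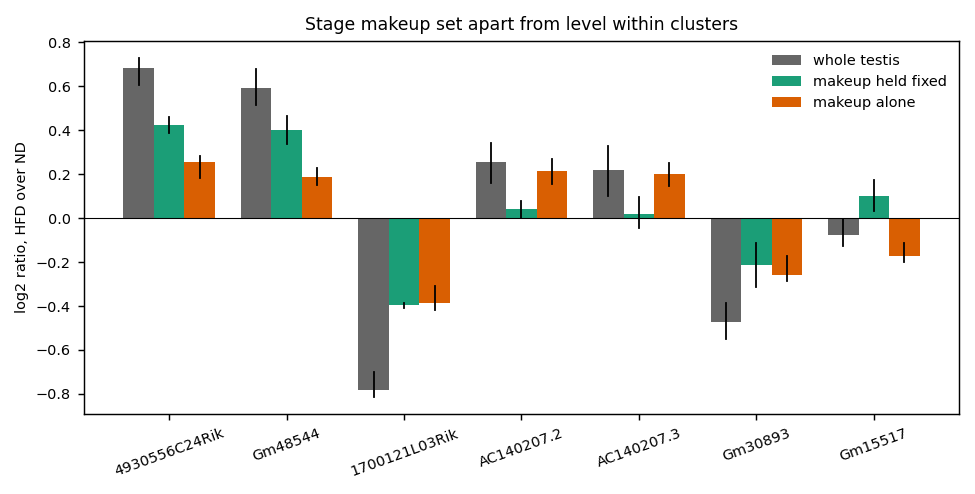
Log2 ratio of HFD over ND for each gene in the whole testis, with stage makeup held fixed, and from makeup alone; bars are the values with 24 clusters, and black lines span the alternatives (other resolutions, other clustering genes, cell weights, each library left out). The AC140207 genes have ratios of 0.04 and 0.02 with makeup held fixed, with alternatives from -0.04 to 0.10. 4930556C24Rik, Gm48544 and 1700121L03Rik have ratios of 0.34 to 0.47 in size over the alternatives.

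**Figure D4:**
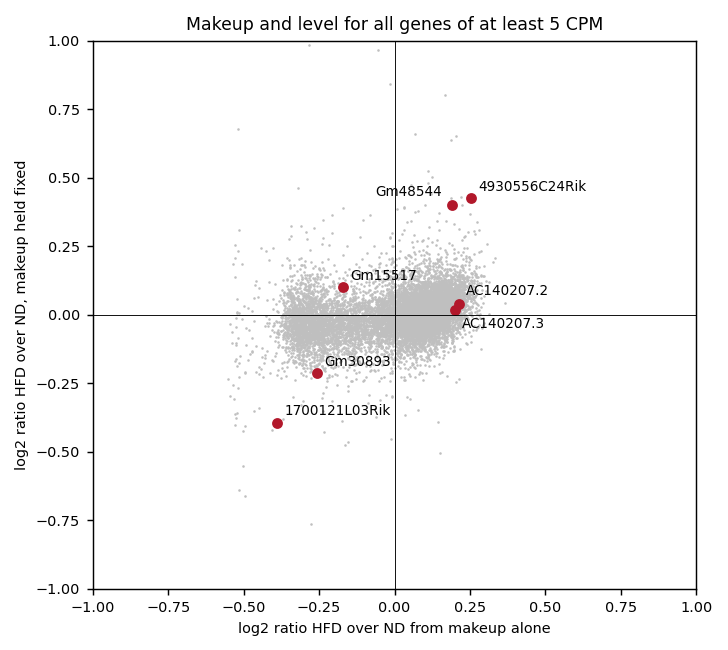
Ratio with makeup held fixed against ratio from makeup alone (log2, HFD over ND) for the 10616 tested genes of at least 5 CPM (grey; 4 lie outside the axes) and the 7 members (red). Most genes spread along the horizontal axis, and 4930556C24Rik, Gm48544 and 1700121L03Rik lie far from it.

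Within pachytene-like cells 4930556C24Rik stood at 54.4 and 52.8 CPM in HFD and at 40.0 and 40.2 CPM in ND, a log2 ratio of 0.42 (SE 0.044). Gm48544 stood at 80.4 and 75.8 CPM against 59.5 and 67.5 CPM (0.30, SE 0.053). The groups were apart for both. AC140207.2 and AC140207.3 had ratios of -0.03 (SE 0.046) and -0.08 (SE 0.049), and neither was called. The ratio of AC140207.2 was 0.05 without ND 1 and -0.11 (SE 0.035) without ND 2, where it was called. That of AC140207.3 was -0.01 without HFD 1 and -0.14 without HFD 2. A class pools its clusters, so a ratio within any class still holds the mix of clusters inside it. In clusters 3, 5 and 15 the log2 ratios of mean CPM were 0.0042, -0.07 and 0.03 for AC140207.2 and -0.06, 0.04 and -0.06 for AC140207.3. They were 0.44, 0.31 and 0.38 for 4930556C24Rik and 0.26, 0.38 and 0.32 for Gm48544. The part of that mix in the class ratios was not tested. Of the 7 genes 4 were called within this class, where 2.52% of its tested genes were, and nothing is read from that count. The other 2 called were Gm15517 (-0.36, SE 0.073) and 1700121L03Rik (-1.15, SE 0.199), which stood at only 0.82 to 2.11 CPM, below its mean Leydig-like level of 2.75 CPM. Without HFD 1 the call of Gm15517 was lost (-0.26, SE 0.079). Without the filter on low counts, 5 genes in all were called in this class in place of 442, and all 4 of these calls were lost at nearly the same ratios (0.42, 0.30, -0.35 and -1.15).

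Within cluster 7 Gm48544 stood at 153.2 and 164.2 CPM in HFD against 110.6 and 112.7 CPM in ND, a log2 ratio of 0.51 (SE 0.044). AC140207.2, highest in that cluster too, had a ratio of 0.07 (SE 0.035) and AC140207.3 of 0.03 (SE 0.044). Of the members 3 were called there (2.11% of tested genes), Gm48544, 4930556C24Rik and Gm15517. The calls of 4930556C24Rik and Gm15517 were lost without HFD 1 (0.54 and -0.33) and without HFD 2 (0.45 and -0.44), and with DESeq2 (0.49 and -0.38). In each of these runs far fewer genes of this cluster were called in all (29 in place of 322 with DESeq2). Nothing is read from the lost calls. Whether the ratio of Gm48544 differs from those of the AC140207 genes in the same cells was not tested.

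Within early-round-like cells 1700121L03Rik stood at 76.4 and 75.6 CPM in HFD against 105.4 and 105.6 CPM in ND, a log2 ratio of -0.47 (SE 0.035). It was lower in HFD in each of the 4 clusters of the class. It stood at 36.7 and 39.8 against 61.3 and 53.4 CPM in cluster 10, and at 75.5 and 84.2 against 90.6 and 97.0 CPM in cluster 14. The log2 ratios of mean CPM in clusters 10, 11, 12 and 14 were -0.59, -0.43, -0.28 and -0.23. The part of the mix of these clusters in the class ratio was not tested. Gm30893 had a ratio of -0.09 (SE 0.080) in this class, which was -0.20 without ND 1 and 0.03 without ND 2. Of the members 3 were called (2.87% of tested genes), the others being 4930556C24Rik (0.40, SE 0.084) and Gm48544 (0.43, SE 0.082), both at low levels of 6.81 to 14.2 CPM. These last calls were lost without HFD 1 (0.39 and 0.50) and without HFD 2 (0.41 and 0.37). They were also lost without the filter on low counts (0.39 and 0.42), where 8 genes were called in the class in place of 557. In this class AC140207.2 stood at 11.8 to 16.1 CPM, below its mean levels of 31.2 to 120.4 CPM over the somatic clusters. AC140207.2 (0.29, SE 0.081) and Gm15517 (0.11, SE 0.035) were not called in this class. Both were called without ND 1 (0.25 and 0.12) and without ND 2 (0.34 and 0.10). Neither was called without HFD 1 (0.42 and 0.15) or without HFD 2 (0.17 and 0.06). In this class far fewer genes in all were called without an HFD library, and more without an ND library. Nothing particular to the members is read from these lost and gained calls.

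Within elongating-like cells Gm30893 stood at 21.2 and 19.5 CPM in HFD against 25.0 and 29.8 CPM in ND, a log2 ratio of -0.43 (SE 0.115). In cluster 1, its highest, it stood at 33.3 and 32.9 against 40.9 and 48.1 CPM, with the same ratio of -0.43 (SE 0.089), and was not called there. It was called there without HFD 1 (-0.44), without ND 1 (-0.54), with doublets kept (-0.45) and without the filter on low counts (-0.43). Of the members 3 were called in elongating-like cells (5.55% of tested genes), with 4930556C24Rik (0.52) and Gm48544 (0.46) again higher in HFD. Both were at low levels there, 9.25 to 16.3 and 11.5 to 17.1 CPM, within their ranges over the somatic clusters given above. The call of Gm30893 was lost without HFD 2 (-0.37), without ND 2 (-0.30) and with doublets kept (-0.33). With doublets kept, 70 genes in all were called in this class in place of 710. Gm15517, at 0.09 and not called, was 0.21 and called without ND 1 and -0.03 without ND 2. The calls of 4930556C24Rik and Gm48544 were lost without HFD 1 (0.53 and 0.44), HFD 2 (0.51 and 0.47) or ND 1 (0.28 and 0.37), and that of Gm48544 also with doublets kept (0.22) and without the filter on low counts (0.46).

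Both HFD libraries lay above both ND libraries in 15 of 18 germ-cell clusters for 4930556C24Rik and in 13 for Gm48544, and below in 0 for either. For 1700121L03Rik they lay below in 14 and above in 0. The diets overlapped in the other 3, 5 and 4 clusters. In some of these the mean went the other way: Gm48544 had a log2 ratio of means of -0.48 in cluster 20 and 1700121L03Rik of 0.23 in cluster 0, where it stood at 2.57 and 2.22 against 1.45 and 2.62 CPM. Over genes of at least 5 CPM, HFD lay above in 22.4% and below in 19.2% of pairs of gene and cluster. AC140207.2 lay above in 8 clusters, AC140207.3 above in 4 and below in 1, Gm30893 above in 2 and below in 7, and Gm15517 above in 5 and below in 7. 4930556C24Rik was also higher in Leydig-like cluster 19, at 7.16 and 9.66 against 4.73 and 2.34 CPM, and the part of free RNA in the ratios of clusters at low levels was not tested.

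Gm15517 went opposite ways in different clusters. In elongating-like cluster 20 it stood at 2410 and 2361 CPM in HFD against 1976 and 1922 CPM in ND, and in early-round-like cluster 12 at 246.7 and 277.9 against 222.5 and 205.0 CPM. In pachytene-like cluster 3 it stood at 21.4 and 24.2 against 29.4 and 36.9 CPM, and in Leydig-like cluster 19 at 39.7 and 49.7 against 56.7 and 64.1 CPM. Sertoli-like cluster 16 went the other way from cluster 19, at 330.8 and 372.0 against 287.6 and 250.8 CPM. For Gm15517 the diets overlapped in 6 of the 18 germ-cell clusters. Among these were elongating-like clusters 0, 2 and 4, with log2 ratios of mean CPM of 0.11, 0.09 and 0.30. Pachytene-like cluster 5 (-0.05), early-round-like cluster 10 (-0.09) and unnamed cluster 13 (-0.14) were the others. Cluster 20 held 6.44% of its UMIs. The 7 germ-cell clusters where HFD was lower had mean levels of 24.2 to 96.7 CPM, around the Leydig-like level, and the 5 where it was higher had 158.9 to 2167 CPM. The part of free RNA in this pattern was not tested.

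The genes next to the members gave a comparison that did not choose them. Hecw1, which overlaps Gm30893, was lower in HFD at -0.28 on the log2 scale (SE 0.065; edgeR adjusted p = 0.00393; 6.65 and 6.88 against 7.94 and 8.50 CPM), and its profile over clusters had an r of 0.86 with that of Gm30893. The nearest tested genes on either side of Gm30893 went opposite ways. Arid4b, 322 kb away, was higher at 0.27 (SE 0.044; edgeR adjusted p = 0.000269), and Mrpl32, 83.2 kb away, was lower at -0.14 (SE 0.042; edgeR adjusted p = 0.0183). Gm28496, which contains Gm15517, had a ratio of -0.02 (SE 0.103; edgeR adjusted p = 0.918) and an r of 0.97. Acp4, an acid phosphatase gene 4.07 kb from Gm15517, was lower at -0.34 (SE 0.054; edgeR adjusted p = 0.000226).

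Near 4930556C24Rik lie 2 genes for secreted proteases. Adamts1, 16.1 kb away, was lower in HFD at -0.63 (SE 0.217; edgeR adjusted p = 0.0348; 0.27 to 0.56 CPM) and highest in Leydig-like cells, and Adamts5, 29.4 kb away, had a ratio of 0.02 (SE 0.143; edgeR adjusted p = 0.914). Gnal, a G protein subunit gene 3.84 kb from AC140207.2, had a ratio of 0.04 (SE 0.104; edgeR adjusted p = 0.791). The nearest tested genes of 1700121L03Rik, Dpp10 (1145 kb) and Actr3 (195 kb), had ratios of 0.08 (SE 0.044; edgeR adjusted p = 0.173) and -0.10 (SE 0.057; edgeR adjusted p = 0.21). Around Gm48544, Gm2544 (161 kb) was lower at -0.73 (SE 0.257; edgeR adjusted p = 0.0406; 0.20 to 0.42 CPM) and Gpr137b (319 kb) had a ratio of -0.24 (SE 0.255; edgeR adjusted p = 0.513). 1700121L03Rik had no called neighbour. The only called neighbours of 4930556C24Rik and Gm48544, Adamts1 and Gm2544, went the other way at the low levels given above, and nothing is read from this.

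Of 5037 tested genes annotated as noncoding RNA, 625 (12.4%) were called higher and 982 (19.5%) lower, beside 15.3% and 18.9% of all tested genes, with a median log2 ratio of -0.06 against -0.02 over all tested genes. Of the 727 of them highest in pachytene-like cells, 381 (52.4%) were called higher and 0 lower, beside 60.2% higher over all tested genes highest there. Of the 1194 highest in early-round-like cells, 3 were called higher and 610 (51.1%) lower, beside 51.6% lower over all tested genes highest there. The differences between these shares were not tested, and nothing particular to noncoding RNA is read from them. Of a list of 27 well-known noncoding RNAs, 25 were tested, and 5 were called higher and 7 lower. Among the called genes of the list, the largest falls were those of the imprinted RNAs Meg3 (-1.40, SE 0.082; edgeR adjusted p = 9.45e-08) and Rian (-1.25, SE 0.190; edgeR adjusted p = 0.000192), both highest in Leydig-like cells, and of Mir22hg (-0.52, SE 0.105; edgeR adjusted p = 0.00155). The largest rises among its called genes were those of Epb41l4aos (0.25, SE 0.059; edgeR adjusted p = 0.00431), Mirg (0.25, SE 0.052; edgeR adjusted p = 0.00221) and Snhg12 (0.24, SE 0.061; edgeR adjusted p = 0.00762).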

How the data were processed

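Droplet single-cell libraries of mouse testis (2 HFD, 2 ND) were grouped by their treatment label. The deposited matrices hold raw UMI counts per gene and barcode, per the file headers, which name software version 3.0.2; per the submitters' processing notes the build is mm10. The aligner and annotation are not given in the sources used here. All 55450 gene identifiers matched GENCODE M21 (GRCm38). The deposited dense tables were not used.

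A barcode was kept if it had 200 or more genes and no more than 20% of its UMIs from mitochondrial genes. Scrublet in scanpy 1.11.5 (expected rate 0.1) called 421, 853, 780 and 756 doublets in HFD 1, HFD 2, ND 1 and ND 2, which were left out. The labels state approximately 13000 cells per channel, beside 13561 to 15290 deposited barcodes. Libraries shared 42 to 65 cell barcodes in pairs. Clustering pooled the cells uncorrected for batch and used Leiden resolution 1 (igraph 0.11.9) on 15 neighbours in 30 principal components of 2000 variable genes. The members were left out of these genes. Marker lists set the names, and clusters stayed unnamed where the depth was low or the leading genes were of another class.

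UMIs summed per library, over all cells or per class with at least 50 cells in every library, were tested with edgeR 4.0.16 (R 4.3.3) by its quasi-likelihood test after filterByExpr and TMM. P-values were adjusted by Benjamini-Hochberg over all genes tested, with a threshold of 0.05. The fit was also run on simulated data, and the outcome is not given here. Levels by cluster are CPM of the plain total, and whole-testis and within-class levels are TMM-scaled. An SE comes from the edgeR fit over all genes, so it is not the spread of the gene's own libraries alone. For 1700121L03Rik within early-round-like cells the SE was 0.035, where the log2 spread of a difference between single libraries was 0.010. An SE reflects no libraries beyond these 4. The makeup calculation has no test. Transcripts were compared with blastn 2.17.0. Named genes are the members, the genes that overlap them and the nearest tested gene on each side, the 3 tested genes with at least 20 CPM in some cluster and the highest Pearson r, and up to 3 called genes per direction of the noncoding RNA list. Not all of these are printed. The members and lists were chosen with earlier results of these data known. Alternatives covered DESeq2 1.42.0, low-count filters, doublets, the 10% mitochondrial limit, resolution, clustering genes, weights, left-out libraries and a replicate block.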

Additional observations from a re-analysis of the deposited data

Results flagged for a closer look

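Gm15517 was singled out because its diet ratio had opposite signs in different stages, without overlap of the libraries in either. Within cluster 1 its log2 ratio of HFD over ND was 0.15 (SE 0.049), and within early spermatocyte-like cells it was -0.58 (SE 0.161). With 1 library left out, the first ranged from 0.08 (without HFD 2) to 0.22 (without HFD 1) and the second from -0.68 (without ND 1) to -0.47 (without ND 2). Neither was called by edgeR, although at Leiden resolution 2 the latter was called at -0.43 (SE 0.096), and the difference between them was not tested. Its mean level was 263 CPM in cluster 1, 76.1 CPM in early spermatocyte-like cells and 52.5 CPM in Leydig-like cluster 19.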

How the results depend on the processing

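In the whole testis 8728 genes were called, and between 5098 (without HFD 2) and 8444 (without ND 2) with 1 library left out. The within-stage total of 2119 called genes was less stable: it was 821 with DESeq2 and ranged from 383 (without HFD 2) to 6870 (without ND 1) with 1 library left out. With the replicate number as a block, the whole-testis count was 10173 and the within-stage total 3856. The labels number the libraries 1 and 2 in each diet but do not say that a number marks a shared animal or day. Over 8499 genes the deviations of same-numbered libraries had a correlation of 0.17, and with 2 pairs the numbers were not taken as pairing. Under the block, AC140207.2 was called in early-round-like cells (0.29, SE 0.074) and Gm48544 in cluster 8 (0.45, SE 0.125). No ratio of a member that was called in the main run changed sign in any alternative run. AC140207.2 in pachytene-like cells and Gm15517 in elongating-like cells were not called in the main run. Each changed sign between runs with 1 library left out, as given above. Within-stage calls lost without a library are given beside their values above, apart from cluster 8. There 4930556C24Rik was called at 0.60 (SE 0.130), and the call was lost without any one of the 4 libraries (0.53 to 0.66) and with DESeq2 (0.59). With DESeq2, 6 genes in all were called in that cluster in place of 50. The count of genes called in a stage differed between such runs, so a lost or gained call is not read as particular to a member. The whole-testis call of AC140207.3 was lost without HFD 2 (0.12, SE 0.055) and without the filter on low counts (0.22, SE 0.069). Within elongating-like cells Gm48544 was 0.22 (SE 0.123) with doublets kept and Gm30893 was -0.30 (SE 0.147) without ND 2, neither called. With makeup held fixed, the ratio of Gm30893 ranged from -0.31 to -0.11 and that of 1700121L03Rik from -0.41 to -0.39 with 1 library left out. With 2 libraries per diet, an arm left with 1 library is assumed to vary like the other arm, and small ratios such as those of the AC140207 genes were not resolved.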
